A study of Rattus norvegicus with 3 samples.

Results

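The Id genes and a group of known targets of bone morphogenetic protein (BMP) and SMAD signalling were described in cultured ventricular myocytes of newborn rats. The group held 9 genes, namely Id1, Id2, Id3, Smad6, Bambi, Atoh8, Grem1, Tgfbi and Hes1, of 10411 genes that the arrays measured with probe sets of a single gene symbol. Id1, Id2 and Id3 were selected on their difference in intensity between the PAMH and phenylephrine arrays, so their values are a description and carry no test. The other 6 were taken as known BMP and SMAD targets, of which Hes1 is best known as a Notch target. All 9 genes were found, with 11 probe sets.

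There were 3 conditions with 1 Affymetrix array each, measured as total RNA after 48 h of culture. The first culture received PAMH at 1 µM, a compound known here by the submitters' name alone, whose keywords include hypertrophy, 5-hydroxytryptamine and pyridine. The second received phenylephrine at 20 µM, an agonist of α1-adrenergic receptors that makes cultured cardiac myocytes grow. The third was unstimulated. The doses differed, and no values at a matched dose exist. With 1 array per condition no difference has a standard error or a p-value, and precision is limited by the small number of arrays.

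BMP ligands bind pairs of type I and type II receptor kinases, which phosphorylate SMAD1 and SMAD5. These enter the nucleus with SMAD4 and switch on genes that include Id1, Id2, Id3 and the feedback inhibitor Smad6. Id proteins have a helix-loop-helix domain without the DNA-binding basic region. They pair with E proteins such as those of Tcf3, Tcf4 and Tcf12 and keep them from binding DNA, and they are known for holding cells in an undifferentiated or dividing state. In the mouse embryo Id1 and Id3 are expressed in the epicardium and endocardium, and embryos without several Id genes have heart defects. Id1 and Id3 are therefore not specific to myocytes.

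The sequence upstream of the annotated transcription start was available for 8 of the 9 genes, all but Smad6. The sequences are RefSeq's, on build GRCr8, and the 250 bases before the start are printed for the 3 Id genes, which were lower together on the PAMH array than on the phenylephrine array, and for Hes1, which was lower with both compounds than without. In the Id genes capitals mark CCAAT and ATAAAA, and in Hes1 CCAAT and TGGGAA, each on either strand. The windows are Id1 chr3:161671314-161671563 (plus strand), Id2 chr6:47470996-47471245 (minus strand), Id3 chr5:153656041-153656290 (plus strand) and Hes1 chr11:84213046-84213295 (minus strand), written 5′ to 3′ along the gene.
Id1: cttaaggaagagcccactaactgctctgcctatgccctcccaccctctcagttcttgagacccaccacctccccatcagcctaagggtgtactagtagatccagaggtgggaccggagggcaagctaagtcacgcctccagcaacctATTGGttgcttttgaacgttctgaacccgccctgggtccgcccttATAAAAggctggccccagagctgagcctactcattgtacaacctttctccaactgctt
Id2: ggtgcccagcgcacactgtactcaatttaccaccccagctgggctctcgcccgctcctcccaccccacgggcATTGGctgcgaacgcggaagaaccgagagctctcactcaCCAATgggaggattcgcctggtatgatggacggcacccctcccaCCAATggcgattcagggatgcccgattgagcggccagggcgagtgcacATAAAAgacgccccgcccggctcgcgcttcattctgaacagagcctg
Id3: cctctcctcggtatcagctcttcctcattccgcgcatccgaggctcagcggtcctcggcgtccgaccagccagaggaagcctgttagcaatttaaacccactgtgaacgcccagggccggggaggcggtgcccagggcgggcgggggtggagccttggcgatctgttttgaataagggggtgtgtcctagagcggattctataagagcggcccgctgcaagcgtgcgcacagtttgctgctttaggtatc
Hes1: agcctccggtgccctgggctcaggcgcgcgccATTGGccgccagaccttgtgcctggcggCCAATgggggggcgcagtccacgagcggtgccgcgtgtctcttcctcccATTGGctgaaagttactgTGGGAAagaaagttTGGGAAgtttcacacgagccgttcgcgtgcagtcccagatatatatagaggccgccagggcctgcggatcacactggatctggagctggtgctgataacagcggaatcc

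Across these 250-base windows 6 motifs were searched on both strands, and no match overlapped another in the 8 members' windows. The motifs were chosen with the Hes1 and Id windows in view, so a match describes the letters and marks neither a bound site nor a cause. CCAAT, read by the factor NF-Y, was found in 4 of the 8 windows and in 34.3% of 27457 annotated rat promoters of the same length. It had 1 match before Id1, at position -103 from the start, 3 before Id2, 3 before Hes1 and 1 before Grem1. ATAAAA, which resembles a TATA box, was found before Id1 at position -58 and before Id2 at position -47, against 18.6% of all promoters. Id3 had neither of these motifs in the window. TGGGAA, the core of the site read by the Notch effector RBPJ, had 2 matches before Hes1 and none before the other members, against 21.6% of all promoters. CACGAG, an N-box read by Hes proteins, likewise had 2 matches before Hes1 alone, against 5.43%. CAGAC, which holds the SMAD box, was found before Atoh8 at position -199 and before Hes1 at position -209, against 42.8%.

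The GC-rich element GGCGCC, which SMAD1 and SMAD5 are known to bind, was found in 3 of the 8 windows, against 9.24% of all promoters. The stretches around it are shown with the element in capitals for Bambi at chr17:58821060-58821089, Grem1 at chr3:120978393-120978422 and Tgfbi at chr17:7990208-7990237, all on the minus strand.
Bambi: cccgacactgacGGCGCCcgggcttatgcg
Grem1: cgcggcggcgacGGCGCCtgaccaatggag
Tgfbi: tgtggcctgggaGGCGCCggctgcccttcc
None of the 3 Id windows held it or CAGAC. The best studied BMP-responsive region of mouse Id1 lies further upstream than such a window reaches.

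Intensities below are in arbitrary units on a linear scale, after each array was multiplied by a factor that made the medians of the 3 arrays equal. Ratios were formed where neither array was under a floor of 76.0, the intensity that 40% of all values fell under. The brightest probe set stood for its gene. Of the 11 probe sets, 9 lay above the floor on all 3 arrays and gave each of the 9 genes a value. Before scaling, the log2 ratio of the deposited medians was -0.15 for PAMH over unstimulated and -0.13 for phenylephrine over unstimulated, and all ratios are relative to this shift. As a technical yardstick, the log2 ratio varied between probe sets of the same gene with an SD of 0.29 for PAMH over unstimulated, 0.27 for phenylephrine over unstimulated and 0.23 for PAMH over phenylephrine. It says nothing of variation from culture to culture.

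All 8 markers of cardiac myocytes lay above the floor on all 3 arrays, with a summed intensity of 76383 with PAMH, 64655.5 with phenylephrine and 54622 without stimulus. The order of these sums was not checked under other processing. For PAMH over unstimulated, Myh6, Tnnt2, Tnni3 and Pln turned sign under some processing alternatives, Myh6 from a log2 ratio of 0.30 to -0.30. Actn2, Myl2 and Myl3 stayed higher and Ryr2 stayed lower under all of them. Fibroblast markers were also present, 7 of 9 of them on all 3 arrays and none at 0, and their sum was 5212 with PAMH, 6706 with phenylephrine and 8693 without stimulus. The 5 smooth muscle markers lay above the floor on all 3 arrays, with sums of 6176, 7303 and 3235 in the same order. They did not share a direction for PAMH over unstimulated. The log2 ratio was 1.52 for Acta2, 2.48 for Cnn1 and 0.37 for Tagln, but -0.64 for Myh11 and -0.19 for Smtn. The 6 endothelial markers on the array were dim, with sums of 234, 448 and 369 in the order PAMH, phenylephrine and unstimulated. None lay above the floor on all 3 arrays, and 3 lay below it on every array. Of the macrophage markers 3 of 6 were below the floor on every array, and both Schwann cell markers were. In such cultures fewer cells of a type and less RNA per cell cannot be told apart.

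The first question was how the Id genes themselves stood on the 3 arrays. Id1 was highest with phenylephrine, Id3 likewise, and Id2 was highest without stimulus. With PAMH all 3 were about 2-fold lower than with phenylephrine. Against unstimulated cells the Id genes did not share a direction with PAMH. With phenylephrine Id1 and Id3 were higher than without, and the Id2 ratio was smaller than the yardstick.

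Id1, a BMP target with a role in cell growth and blood vessel formation, had an intensity of 281 with PAMH, 614 with phenylephrine and 190.0 without stimulus. The phenylephrine array thus stood well above the other arrays, and the PAMH array lay between. Id1 was 1.48-fold higher with PAMH than without, a log2 ratio of 0.56, and 3.23-fold higher with phenylephrine than without, a log2 ratio of 1.69. Of 6571 genes measured on both arrays, 29 had a higher ratio of phenylephrine over unstimulated than Id1. It was 2.19-fold lower with PAMH than with phenylephrine, a log2 ratio of -1.13.

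Id3, which is often expressed together with Id1, had an intensity of 330.2 with PAMH, 708 with phenylephrine and 392 without stimulus. The phenylephrine array was again highest, but here the PAMH array was lowest. With PAMH the log2 ratio over unstimulated was -0.25, smaller than the yardstick of 0.29. Id3 was 1.80-fold higher with phenylephrine than without, a log2 ratio of 0.85. It was 2.14-fold lower with PAMH than with phenylephrine, a log2 ratio of -1.10.

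Id2, known from neural, lymphoid and cardiac conduction cells, had an intensity of 263 with PAMH, 519 with phenylephrine and 608 without stimulus. Here the PAMH array stood apart and the other arrays lay near each other. Id2 was 2.31-fold lower with PAMH than without, a log2 ratio of -1.21, and 25 of 6549 genes had a lower ratio. With phenylephrine the log2 ratio over unstimulated was -0.23, smaller than the yardstick of 0.27. It was 1.97-fold lower with PAMH than with phenylephrine, a log2 ratio of -0.98.

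The second probe set of Id2 had an intensity of 51.4 with PAMH, 105 with phenylephrine and 62.5 without stimulus, so it lay above the floor on the phenylephrine array alone. Its order differed from that of the brighter probe set, whose unstimulated array was highest. Its PAMH and unstimulated values, both under the floor, have no order. For phenylephrine against unstimulated cells the probe sets gave no shared direction. Id1 and Id3 each had 1 probe set, and reaction of a probe set with another Id transcript was not tested.

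In the contrast for which they were picked, 12 genes had a lower ratio of PAMH over phenylephrine than Id1, 14 than Id3 and 28 than Id2, of 6593 genes measured on both arrays. Of those genes 24, or 0.364%, were at least 2-fold lower with PAMH than with phenylephrine, and 0.197% were at least 2-fold higher. Id1 and Id3 lay just inside that fold and Id2 just outside it. At 1.5-fold, 3 of the 9 genes were lower, the 3 Id genes, and none was higher, where 2.67% of all genes were lower and 1.93% higher. Since that contrast chose the Id genes, nothing is read from these counts. Postn, which encodes the fibroblast matrix protein periostin, also had a lower ratio in this contrast, with an intensity of 212 with PAMH, 525 with phenylephrine and 721 without stimulus. The fibroblast marker list as a whole had a median log2 ratio of -0.36 over 7 genes, with 2 lower and none higher at 1.5-fold. For PAMH over unstimulated, where Id2 was 2.31-fold lower, its median was -0.89, with 6 of 7 lower and none higher at 1.5-fold. Of all genes 4.17% were lower there. The part of the fibroblast list in the Id values was not tested. The smooth muscle list had a median of -0.36 over 5 genes for PAMH over phenylephrine, with 1 lower and none higher, and its part was not tested either.

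**Figure D1:**
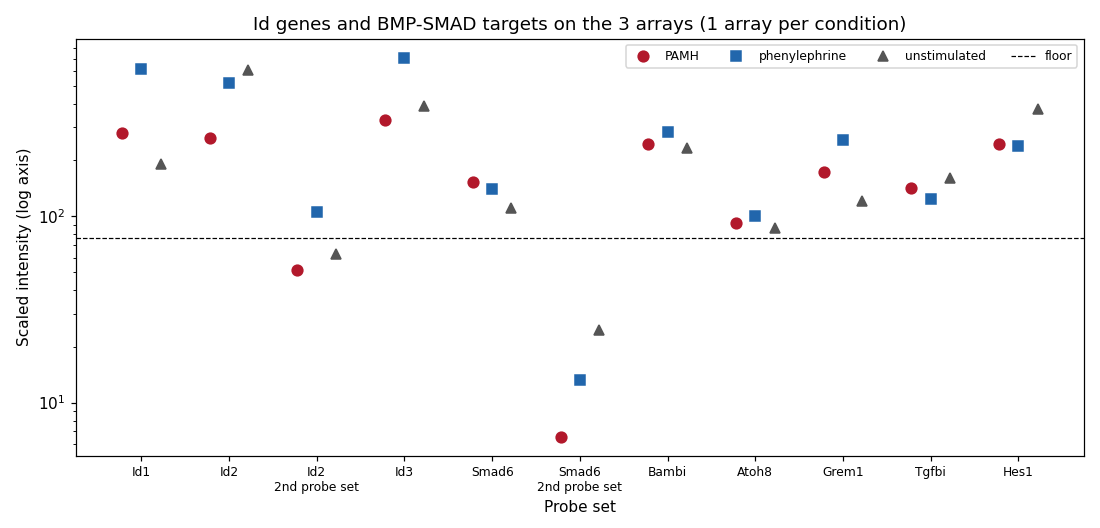
Scaled intensity (arbitrary units, log axis) of the 11 probe sets of the Id genes and BMP-SMAD targets on the PAMH (circles), phenylephrine (squares) and unstimulated (triangles) arrays, 1 array per condition, with the floor of 76.0 as a dashed line. Each point is a single measurement without error. The phenylephrine point is above the PAMH point for every Id probe set, the difference for which Id1, Id2 and Id3 were picked. The PAMH point of the second Id2 probe set is under the floor. The points of Bambi and Atoh8 lie close together.

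The next question was how the inhibitors and other factors that BMP signalling induces stood on the same arrays. Smad6, Bambi and Atoh8 each stayed within 1.5-fold in all 3 comparisons.

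Smad6, an inhibitory SMAD that blocks the BMP receptors and is itself induced by BMP, had an intensity of 152 with PAMH, 139 with phenylephrine and 110.3 without stimulus. The treated arrays lay close together above the unstimulated array. Its log2 ratio was 0.46 for PAMH over unstimulated, 0.34 for phenylephrine over unstimulated and 0.12 for PAMH over phenylephrine. A second Smad6 probe set lay below the floor on all 3 arrays, with 6.57, 13.3 and 24.5 in the order PAMH, phenylephrine and unstimulated, and gave no ratio.

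Bambi, a decoy receptor without a kinase that dampens BMP and TGF-β signals, had an intensity of 245 with PAMH, 283 with phenylephrine and 233 without stimulus. Its log2 ratio was 0.07 for PAMH over unstimulated and 0.29 for phenylephrine over unstimulated, and that for PAMH over phenylephrine was -0.21. The last lay within the yardstick of 0.23.

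Atoh8, a basic helix-loop-helix factor known as a BMP-SMAD target in liver and endothelial cells, had an intensity of 91.5 with PAMH, 100.6 with phenylephrine and 86.4 without stimulus. All 3 values were near the floor. Its log2 ratios were 0.08 for PAMH over unstimulated, 0.22 for phenylephrine over unstimulated and -0.14 for PAMH over phenylephrine, each within its yardstick.

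Grem1 encodes gremlin, a secreted antagonist that binds BMP2 and BMP4 and is made in response to BMP and TGF-β. It had an intensity of 172 with PAMH, 255 with phenylephrine and 120.4 without stimulus. Its order of arrays was that of Id1, with phenylephrine highest, PAMH between and unstimulated lowest. Grem1 was 2.12-fold higher with phenylephrine than without, a log2 ratio of 1.08. The log2 ratio was 0.52 for PAMH over unstimulated, a 1.43-fold higher signal, and -0.57 for PAMH over phenylephrine, a 1.48-fold lower signal that was at or past 1.5-fold under 3 of the processing alternatives.

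Tgfbi, a matrix protein gene induced by TGF-β through SMAD3, had an intensity of 142 with PAMH, 124 with phenylephrine and 160.2 without stimulus. The unstimulated array was highest, opposite to Grem1. Its log2 ratio was -0.18 for PAMH over unstimulated, -0.37 for phenylephrine over unstimulated and 0.19 for PAMH over phenylephrine. The first and the last lay within their yardsticks of 0.29 and 0.23.

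Hes1, a repressor of the hairy family that Notch induces and that BMP can raise further, had an intensity of 244 with PAMH, 237 with phenylephrine and 378 without stimulus. The treated arrays nearly coincided below the unstimulated array. Hes1 was 1.55-fold lower with PAMH than without, a log2 ratio of -0.63, and 1.59-fold lower with phenylephrine than without, a log2 ratio of -0.67. Its log2 ratio for PAMH over phenylephrine was 0.04. With an offset of 50 added before the logarithm these were -0.54 and -0.58, short of 1.5-fold. Both comparisons with unstimulated cells share 1 array, so a deviation of that array would appear in both.

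Counted at 1.5-fold, 2 of the 9 genes were lower with PAMH than without, Id2 and Hes1, and none was higher, where 4.17% of 6549 genes were lower and 9.31% higher (7.84% and 5.33% on the deposited intensities). Their median log2 ratio was 0.07, against 0.10 over all genes measured. With phenylephrine 3 genes were higher than without, Id1, Id3 and Grem1, and 1 was lower, Hes1, where 8.9% of 6571 genes were higher and 4.54% lower. On the deposited intensities the background was 5.98% higher and 7.84% lower. The median over the 9 genes was 0.29, against 0.07 over all genes measured. With an offset of 50, Hes1 left these counts, so that 1 gene was lower with PAMH and 0 with phenylephrine. Id1, Id2 and Id3 were selected on the same PAMH and phenylephrine values, so nothing is read from these counts and medians, which are a description. At 2-fold, Id1 and Grem1 were higher and none lower with phenylephrine, where 2.62% of all genes were higher and 0.761% lower. At the same fold Id2 was lower and none higher with PAMH, where 0.794% of all genes were lower and 2.05% higher.

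**Figure D2:**
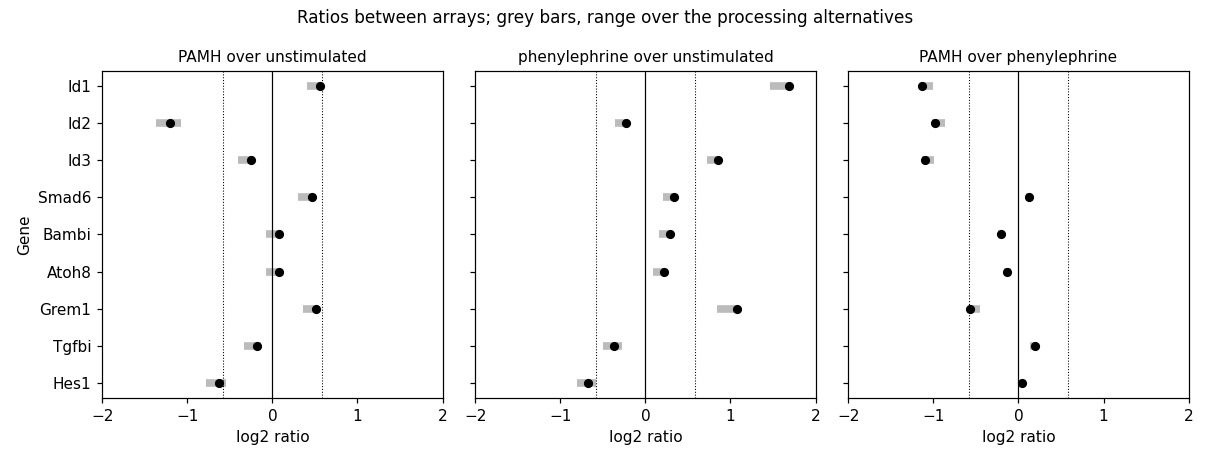
Log2 ratio (black points) of each gene for PAMH over unstimulated, phenylephrine over unstimulated and PAMH over phenylephrine, with the range over the processing alternatives as grey bars and the 1.5-fold threshold as dotted lines. The Id genes were picked for the contrast of the last panel and sit near -1 there, at -1.13, -0.98 and -1.10. Smad6, Bambi, Atoh8, Tgfbi and Hes1 lie between -0.21 and 0.19 in the same panel.

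Id4, the remaining Id gene, was no member. Its brighter probe set had an intensity of 52.8 with PAMH, 150.0 with phenylephrine and 71.3 without stimulus, so it was above the floor with phenylephrine alone and gave no ratio. Other textbook BMP-SMAD targets were mostly too dim. Of 8 on the array, Smad7, Smad9 and Dlx5 lay below the floor on every array, and only Tnfrsf11b lay above it on all 3. Tnfrsf11b, which encodes the decoy receptor osteoprotegerin, had an intensity of 102 with PAMH, 299.7 with phenylephrine and 136 without stimulus. As with Id3, its phenylephrine array was highest and its PAMH array lowest. Its log2 ratios were -0.42 for PAMH over unstimulated, 1.14 for phenylephrine over unstimulated and -1.55 for PAMH over phenylephrine. The last was -1.20 at its weakest under the processing alternatives, and the PAMH value was near the floor. Hamp, of the same list, had 119 with PAMH, 91.9 with phenylephrine and 74.1 without stimulus, the last under the floor. It went the other way, with a log2 ratio of 0.37 for PAMH over phenylephrine, short of 1.5-fold.

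Upstream of these targets, the BMP ligands on the array were Bmp2, Bmp3, Bmp4, Bmp6 and Bmp7. The list counts here and below stand beside the shares of all genes past 1.5-fold over unstimulated. These were 9.31% higher and 4.17% lower with PAMH, and 8.9% higher and 4.54% lower with phenylephrine. The lists are small, so nothing is read from their counts. Bmp7 was the 1 ligand of 4 measured that was higher at 1.5-fold with either compound. None was lower, although Bmp6 was just short of that fold with PAMH. Bmp7 had an intensity of 277 with PAMH, 312 with phenylephrine and 146 without stimulus, a log2 ratio of 0.92 and 1.09 over unstimulated. The treated arrays lay close together above the unstimulated array, unlike those of Id1 and Id3. Bmp4 had 97.7 with PAMH, 151 with phenylephrine and 116 without stimulus, and was 1.5-fold lower or more with PAMH than with phenylephrine, at a log2 ratio of -0.62 that was -0.44 with an offset of 50. The PAMH value of Bmp4 was near the floor. Bmp6 had 139.6 with PAMH, 179 with phenylephrine and 209 without stimulus, with a log2 ratio of -0.58 for PAMH over unstimulated that was past 1.5-fold under 4 of 9 processing alternatives, reaching -0.74.

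Among the receptors and co-receptors, 11 were on the array and 7 lay above the floor on all 3. Rgma, a membrane-anchored co-receptor for BMP2 and BMP4, had an intensity of 127 with PAMH, 211 with phenylephrine and 429.7 without stimulus. It stood highest without stimulus and lowest with PAMH, as the brighter Id2 probe set did, with log2 ratios of -1.76 for PAMH over unstimulated, -1.02 for phenylephrine over unstimulated and -0.74 for PAMH over phenylephrine. Bmpr1a, a type I BMP receptor, had 739 with PAMH, 527 with phenylephrine and 451 without stimulus. Its log2 ratio for PAMH over unstimulated was 0.71, with 0.56 as the lowest of the alternatives. Acvr2a, a type II receptor for activins and some BMPs, had 125 with PAMH, 191 with phenylephrine and 123 without stimulus. Its log2 ratio for phenylephrine over unstimulated was 0.64, with 0.48 as the lowest of the alternatives. For PAMH over phenylephrine it was -0.62, past 1.5-fold, and -0.47 at its weakest under the alternatives. Rgma and Bmpr1a were the only receptors of 7 measured past 1.5-fold with PAMH against unstimulated, and Rgma and Acvr2a the only ones of 8 with phenylephrine. On the deposited intensities Tgfbr1, a type I TGF-β receptor, was past it too, at -0.59 with PAMH and -0.65 with phenylephrine. Acvr1c, Acvrl1 and Acvr2b lay below the floor on every array. Bmpr2, the type II BMP receptor, had 0.02 for PAMH over unstimulated and 0.25 for phenylephrine over unstimulated.

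The SMAD genes that carry the signal showed small ratios. Of 10 SMADs and SMAD regulators measured, 1 was at least 1.5-fold higher with PAMH than without, the phosphatase gene Ppm1a at a log2 ratio of 0.59, which was as low as 0.44 under the alternatives. None passed 1.5-fold with phenylephrine. None did so between the compounds, but Tgif1, a SMAD co-repressor gene, had a log2 ratio of -0.58 for PAMH over phenylephrine and passed under 4 of 9 alternatives, reaching -0.61. On the deposited intensities Tgif1 also passed for PAMH over unstimulated, at -0.66. Smad1 had log2 ratios of 0.13 for PAMH over unstimulated and 0.37 for phenylephrine over unstimulated, and Smad5 of -0.31 and -0.22. Another Smad5 probe set had -0.04 and -0.01 in the same order. Of 4 secreted antagonists measured besides Grem1, Fstl3, a follistatin-like protein that binds activins, was 2.01-fold higher with PAMH and 2.39-fold higher with phenylephrine than without, from an unstimulated intensity of 77.0 near the floor. Noggin's gene Nog, Sost and Nbl1 lay below the floor on every array.

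Targets of TGF-β through SMAD3, a branch that Tgfbi belongs to, did not share a direction. Of 9 measured, Ccn2 and Tgfb1i1 were higher and Col1a1 and Postn lower with PAMH than without at 1.5-fold. With phenylephrine Ccn2, Tagln and Tgfb1i1 were higher and none was lower. Under the alternatives Fn1 reached -0.64 with PAMH and Postn -0.59 with phenylephrine, past 1.5-fold. The log2 ratios of Ccn2, 0.81 with PAMH and 0.79 with phenylephrine, were as low as 0.38 and 0.46 under the alternatives, below 1.5-fold. Col1a1 had a second probe set with -0.04 for PAMH over unstimulated beside -0.64 for the brighter one. Tagln also stands in the list of smooth muscle markers, and Col1a1 and Postn in that of fibroblasts. The E protein genes that Id proteins bind were measured by Tcf4 and Tcf12, whose log2 ratios over unstimulated lay between -0.07 and 0.38, while Tcf3 was below the floor on every array, as were Myod1, Twist1 and Twist2 of the same list.

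Hes1 was set beside the Notch pathway, of which 6 genes had a ratio for PAMH over unstimulated and 7 for phenylephrine over unstimulated. Jag1, a Notch ligand, was lower as Hes1 was, with an intensity of 84.4 with PAMH, 104 with phenylephrine and 268 without stimulus. Its log2 ratios were -1.67 for PAMH over unstimulated and -1.37 for phenylephrine over unstimulated, and the PAMH value was near the floor. Hes5, another Hes gene of the Notch pathway, went the opposite way, with 170.1 with PAMH, 223 with phenylephrine and 91.1 without stimulus. Its log2 ratios were 0.90 for PAMH over unstimulated and 1.29 for phenylephrine over unstimulated, and the unstimulated value was near the floor. These were the only genes of the Notch list measured past 1.5-fold with either compound. Notch1, Notch2, Notch4 and Dll1 lay below the floor on every array.

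**Figure D3:**
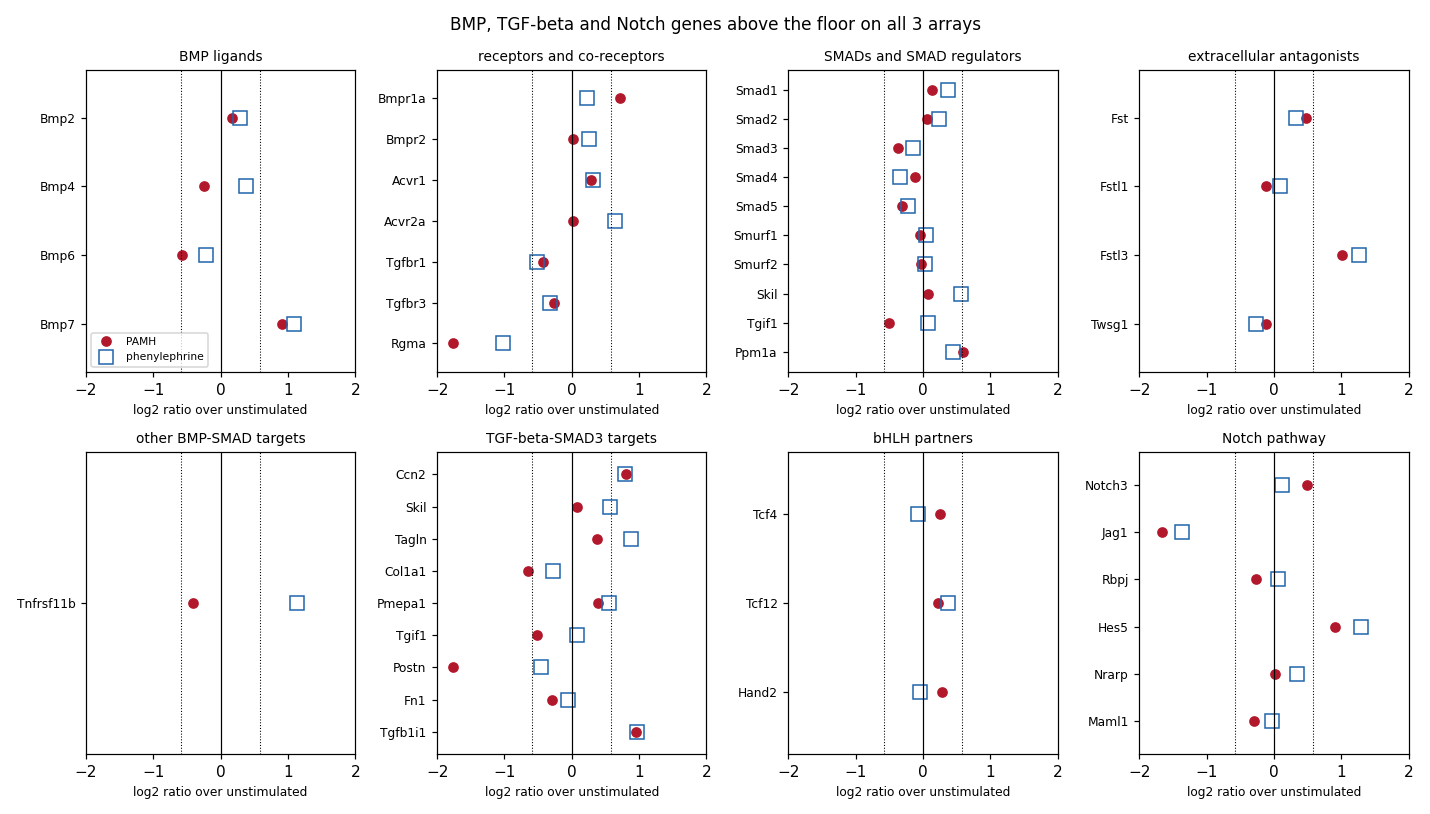
Log2 ratio over unstimulated with PAMH (filled circles) and phenylephrine (open squares) for the listed genes that lay above the floor on all 3 arrays, 1 panel per list, with 1.5-fold as dotted lines. Most SMAD genes lie near 0, Rgma and Jag1 lie to the left with both compounds, Bmp7, Fstl3 and Hes5 to the right, and Tnfrsf11b has its points on opposite sides at -0.42 and 1.14.

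The genes whose pattern was nearest to each Id gene were found among 4157 other genes, by the distance in the plane of the log2 ratios of PAMH and of phenylephrine over unstimulated, over the 3 arrays. Nearest to Id1 were Tec, a tyrosine kinase gene, at a distance of 0.19, Sema3c, a secreted semaphorin gene, at 0.25, and Plk2, a polo-like kinase gene, at 0.26. Tec had an intensity of 194 with PAMH, 391 with phenylephrine and 137 without stimulus, the order of Id1. Nearest to Id2 were Adamts7, a secreted protease gene (0.20), Phgdh, the first enzyme of serine synthesis (0.22), and Prkag2, a subunit of AMP-activated kinase (0.24). Phgdh had an intensity of 246 with PAMH, 439 with phenylephrine and 492 without stimulus. Nearest to Id3 were Rgs2, which shortens Gq signals (0.15), Psph, the last enzyme of serine synthesis (0.18), and Spry2, a feedback inhibitor of receptor tyrosine kinases (0.18). Rgs2 had an intensity of 243 with PAMH, 603 with phenylephrine and 316 without stimulus, so its PAMH array was lowest, as that of Id3 was. With 3 arrays a pattern is a pair of ratios, and such nearness is a description of these arrays.

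**Figure D4:**
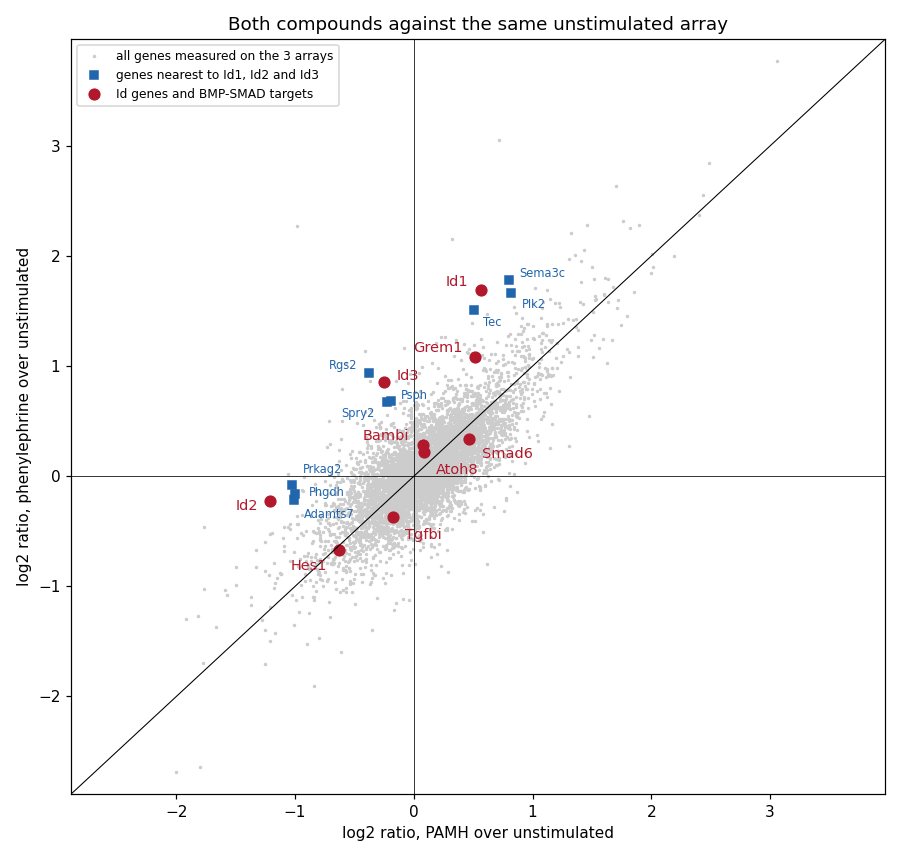
Log2 ratio of PAMH over unstimulated (x axis) against that of phenylephrine over unstimulated (y axis) for all genes measured on the 3 arrays (grey), the Id genes and BMP-SMAD targets (red circles) and the genes nearest to the Id genes (blue squares), with the line of equal ratios. Both axes share the unstimulated array. Id1, Id2 and Id3, picked for their difference between the compounds, lie above the line, and Hes1 lies near it.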

How the data were processed

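Total RNA of 3 cultures was measured on 1 array each. The deposited values are intensities on a linear scale for 15923 probe sets, 57 of them controls. Which software made them is not given in the sources used here. After trimming 2% at each end, the mean was 250.1 on each array. In the platform annotation 12783 other probe sets had 1 symbol, 312 several and 2771 none. Only the first were used. Of these, 12748 were found by gene identifier in a RefSeq table (GRCr8) and took the symbol given there.

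The arrays were multiplied by 1.04 (PAMH), 1.02 (phenylephrine) and 0.937 (unstimulated) to equalise the medians of non-control probe sets. The floor was percentile 40 of all scaled values. No test across arrays was possible. The text names all members, genes of the 8 pathway lists past 1.5-fold or below the floor on every array (up to 4 per list and direction), and the 3 genes nearest to each Id gene with a mean signal above percentile 60. Marker lists are given by sums, medians or counts, and each cardiac myocyte and smooth muscle marker is also named. Id4, Hamp, Bmp2, Bmp3, Bmp6, Bmpr2, Tgfbr1, Smad1, Smad5, Tgif1, Fn1, Tcf4 and Tcf12 are named besides this rule, after their values were seen. The members, lists and alternatives were chosen with earlier results of these data known. Steps were tested on simulated data. Python 3.11.15, numpy 2.4.6, pandas 2.3.3, matplotlib 3.10.9, R 4.3.3 and limma 3.58.1 were used.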

Additional observations from a re-analysis of the deposited data

How the results depend on the processing

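The member ratios and the counts of members past 1.5-fold were recomputed on the deposited intensities, with scaling to percentile 75, quantile normalization, cyclic loess normalization, an offset of 50, a floor at percentile 25 or 50 or none, and the mean over probe sets. Ranks among all genes, 2-fold counts, marker sums, list medians and the nearest genes were not recomputed. The floor and probe set settings could not move a member ratio, since each member had 1 probe set measured, and the floor at percentile 50 left 5 ratios of Atoh8 and Smad6 without a value. Of 135 member ratios under the other 5 settings, each moved by less than the spread between probe sets of a gene, 5 changed their side of the 1.5-fold threshold and 2 turned sign. Those that turned were Atoh8 (-0.07) and Bambi (-0.08) for PAMH over unstimulated on the deposited intensities. On the deposited intensities and with scaling to percentile 75, every ratio of a comparison shifts by the same constant, which was smaller than that spread. Under those settings the size of the move therefore says nothing of a single gene. With an offset of 50, Hes1 had log2 ratios of -0.54 with PAMH and -0.58 with phenylephrine, so that 1 gene in place of 2 was lower with PAMH and 0 in place of 1 with phenylephrine. For PAMH over phenylephrine, Grem1 had -0.59 on the deposited intensities, with scaling to percentile 75 and after cyclic loess. Over the alternatives the log2 ratio of PAMH over phenylephrine ran from -1.16 to -1.01 for Id1, from -1.02 to -0.86 for Id2 and from -1.14 to -0.995 for Id3. On the deposited intensities the background at 1.5-fold was 5.33% higher and 7.84% lower for PAMH over unstimulated, and 5.98% higher and 7.84% lower for phenylephrine over unstimulated. After quantile normalization it was 6.41% and 5.75%, and 7.24% and 5.92%. No paired analysis was possible because each condition had 1 array. Signal near the floor limits Atoh8, Smad6, Id4, Tnfrsf11b, Hamp, Jag1, Fstl3, Hes5 and Bmp4.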
